A study of Homo sapiens with 9 samples.

Results

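The expression of 53 genes of cell adhesion, epithelial and mesenchymal identity, transforming growth factor beta (TGF-beta) signalling and the extracellular matrix was examined in A549 cells after REV1 knockdown. The genes were taken by symbol from a list of 53, and all 53 were found among the 18143 genes measured. A549 is a human lung adenocarcinoma cell line, and REV1 is a DNA polymerase that copies past damaged bases and recruits other polymerases to them. Cells were transfected with a scramble siRNA (Scramble), with SiREV1#1 or with SiREV1#2, and RNA was collected 48 h later. Each group had 3 libraries, numbered 1 to 3, and no treatment other than the siRNA differed between the groups by their labels. Nothing in the labels says that the replicates were separate cultures, so the p-values below measure the spread between these libraries, which may be technical. All values come from 1 cell line, and the measurements are RNA levels of whole cultures, in which fewer cells of a kind and less RNA per cell cannot be told apart.

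Epithelial cells hold to each other through E-cadherin (CDH1) and tight junctions and carry keratin filaments. In epithelial-mesenchymal transition (EMT), the transcription factors of the SNAI, ZEB and TWIST families repress junction genes such as CDH1, while N-cadherin (CDH2), vimentin (VIM) and fibronectin (FN1) are typical of the mesenchymal state. TGF-beta ligands bind the receptors TGFBR2 and TGFBR1, which phosphorylate SMAD2 and SMAD3, and these enter the nucleus with SMAD4, while SMAD7 inhibits the pathway. Collagens and laminins build the matrix and the basement membrane beneath epithelia, integrins bind cells to it, and proteases with their inhibitors (TIMPs) remodel it. A549 cells are of epithelial origin and are often used to study TGF-beta-driven EMT.

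The target REV1 measured 7.23, 7.9 and 8.44 FPKM (fragments mapped, scaled by transcript length and by library size) in the Scramble libraries. With SiREV1#1 it was 2.6, 2.92 and 3.36 and with SiREV1#2 3.62, 3.36 and 3.18, so every knockdown library lay below every Scramble library. Total counts ranged from 13059082, in SiREV1#1 replicate 1, to 20166451. Replicate 1 stood apart from replicates 2 and 3 in every group, and edgeR's biological coefficient of variation was 0.412, against 0.161 when the replicate number entered the model as a block. In SiREV1#2, replicates 2 and 3 were deposited with counts that match at 100.0% of genes, so these entered tests as 1 library (8 in all), while FPKM values are given for all 9. Of 7 epithelial markers, 5 averaged over 1 FPKM (CDH1, EPCAM, KRT7, KRT8 and KRT18). None of 5 lung epithelial markers did, and their summed level was between 0.9 and 3.44 FPKM over the 9 libraries. None of 6 fibroblast or 4 endothelial markers did either, with summed levels of at most 0.79 and 0.14 FPKM, and of the leukocyte markers CD68 alone was above 1 FPKM.

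In Scramble cells the levels, which FPKM gives per length, spanned keratins at the top of all genes to matrix genes that were barely detected. KRT18 and KRT8, the keratin pair of simple epithelia, were listed at 4456, 3663 and 3468 and at 4848, 2345 and 2184 FPKM in replicates 1, 2 and 3. VIM, a mesenchymal filament protein, followed at 482 to 612 FPKM, and ITGB1, the most widely shared integrin beta chain, at 456 to 504. The tight junction gene CLDN1 came next by median, at 18.8, 231 and 244 FPKM. The ranges of KRT18 and KRT8 overlapped, as did those of VIM and ITGB1, and CLDN1 lay below both in all 3 libraries. Of the 53 genes, 43 were over 1 FPKM in all 3 Scramble libraries. The EMT factor SNAI2, the fibrillar collagen gene COL1A1, the matrix metalloproteinases MMP1, MMP2 and MMP14 and the inhibitor TIMP3 were under 1 FPKM in all 3, and MMP1 was listed at 0 in each of them. Averaged over the 9 libraries 45 genes were above 1 FPKM, and 51 passed the filter on low counts (MMP1 and TIMP3 did not). KRT8 and KRT18 share 10.1% and 14.3% of their 50-base words with other genes, mainly their pseudogenes, and their exons overlap on opposite strands. For TGFB2 the share is 25.4% (TGFB2-OT1), for ITGB1 8.86% and for OCLN 8.6%, so these levels are uncertain to the extent that reads were split. Exons of CDH1, CDH2, ITGA5, ITGAV, COL4A2 and TGFB1 overlap an annotated gene on the opposite strand. So do exons of VIM, ZEB1, ZEB2, TWIST1, ITGA6, ITGB1, LAMA5, LAMB1, SMAD3, PLAU, THBS1, TIMP2 and MMP1. Without the strand setting the reads of the partners cannot be told apart.

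**Figure D1:**
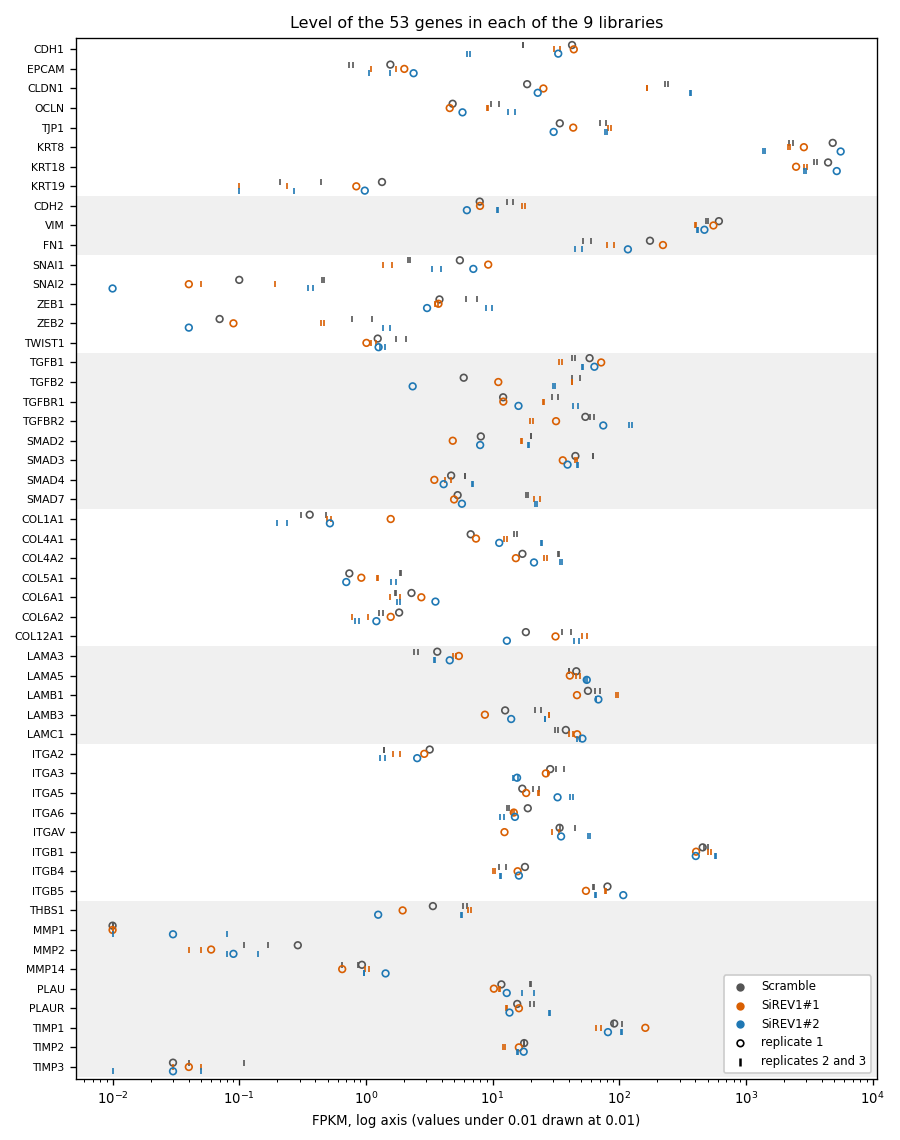
Level of each of the 53 genes (rows, ordered by role, shaded by role) in FPKM on a log axis in the 9 libraries, coloured by group, with open circles for replicate 1 and bars for replicates 2 and 3. KRT8 and KRT18 lie above 1000 FPKM in all 9 libraries, and the circle of CLDN1 lies far to the left of its bars in each group.

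Tested without regard to the replicate number, 0 of the 51 genes changed after SiREV1#1, 0 after SiREV1#2 and 0 differed between the siRNAs in edgeR at an adjusted p under 0.05. Over all 14205 genes the same test called 0.296%, 0.0% and 0.676%. At an unadjusted p under 0.05 the list held 5, 5 and 3 genes, against 1385, 778 and 1762 of the 14205. DESeq2 without the block called 1, 3 and 3, against 582, 215 and 887 of the 14205. Same-numbered libraries deviated together and were treated as pairs, although replicates 2 and 3 of different groups correlated as highly with each other, so that the deviations set apart replicate 1 and do not tell 2 from 3. From here on a gene is said to pass, rise or fall by edgeR with the block on all 8 libraries unless another fit is named. With the replicate block, edgeR called 4 of the 51 genes after SiREV1#1, 2 higher and 2 lower, where 12.3% of all genes passed (5.32% higher and 6.96% lower). After SiREV1#2 it called 2 of the 51, 1 in each direction, where 1.91% of all genes passed (0.493% higher and 1.41% lower). In the direct comparison of SiREV1#1 with SiREV1#2 it called 9 of the 51, or 17.6%, 4 higher and 5 lower after SiREV1#1, and over all genes the share was also 17.6% (8.75% higher and 8.87% lower). The shares of the list were 7.84% after SiREV1#1 and 3.92% after SiREV1#2, a matter of a few genes, and they were not tested against those of all genes. The median log2 fold change of the list was -0.10 after SiREV1#1 and 0.03 after SiREV1#2, against 0.00 and 0.01 over all genes. Leaving out SiREV1#1 replicate 1, the library with the fewest counts, raised the blocked counts to 18, 9 and 22. In that fit 3432, 1650 and 4021 of all 14118 genes passed, so the counts rose over all genes as well. Leaving out any other single library gave 0 to 6 genes after SiREV1#1, 0 to 2 after SiREV1#2 and 2 to 8 between the siRNAs. The lowest count between the siRNAs came without SiREV1#2 replicate 2, the only library of that group beside replicate 1 in these fits. The 8 fits with a library left out are not 8 separate checks. Only Scramble and SiREV1#1 have counts of their own for replicate 3. Leaving out either leaves the other without a partner in its block, so these fits are nearly the same. A fit without a library of the third group keeps every library of the groups compared.

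Of the junction and keratin genes none passed against Scramble in edgeR, while CDH1 and OCLN differed between the siRNAs. CDH1, whose product E-cadherin joins epithelial cells (GRCh38, chr16:68737225-68835548, plus strand), was listed at 42.4, 17.3 and 17.3 FPKM in Scramble, 43.8, 30.8 and 33.9 after SiREV1#1 and 33.0, 6.58 and 6.32 after SiREV1#2. Within each replicate number SiREV1#1 was the highest and SiREV1#2 the lowest, with the widest gaps in replicates 2 and 3, but the 3 groups overlapped because replicate 1 was high in all of them. In the blocked fit the log2 difference between SiREV1#1 and SiREV1#2 was 1.43 ± 0.35 (SE, edgeR adjusted p = 0.03), against 0.92 ± 0.71 without it (adjusted p = 0.73), and it passed in 5 of 8 fits that each left out a library. The difference ran from 0.79 without SiREV1#2 replicate 2 to 2.16 without SiREV1#2 replicate 1, and the other fits that lost the call left out Scramble replicate 1 or 2. Against Scramble the blocked log2 fold changes were 0.73 ± 0.28 after SiREV1#1 (adjusted p = 0.13) and -0.70 ± 0.34 after SiREV1#2 (adjusted p = 0.33, edgeR), and DESeq2 with the block gave an adjusted p of 0.0499 for CDH1 after SiREV1#1. OCLN, the tight junction protein occludin, was listed at 4.84, 9.73 and 11.2 FPKM in Scramble, 4.59, 8.97 and 9.18 after SiREV1#1 and 5.79, 15.0 and 13.3 after SiREV1#2. SiREV1#2 was highest in each same-numbered set, although the groups overlapped, and the blocked log2 difference of SiREV1#1 from SiREV1#2 was -0.59 ± 0.15 (edgeR adjusted p = 0.031). That difference passed in 2 of 8 fits with a library left out.

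EPCAM, an epithelial adhesion molecule, had low levels: 1.56, 0.73 and 0.79 FPKM in Scramble, 2.01, 1.09 and 1.73 after SiREV1#1 and 2.38, 1.54 and 1.05 after SiREV1#2. Each knockdown library exceeded its same-numbered Scramble library, and the blocked log2 fold changes were 0.76 ± 0.24 (edgeR adjusted p = 0.08) and 0.96 ± 0.27 (adjusted p = 0.12). CLDN1 moved in no common direction after SiREV1#1, with log2 ratios to the same-numbered Scramble library of 0.42, -0.49 and -0.55, and had ratios of 0.28, 0.68 and 0.57 after SiREV1#2. KRT8 showed the same split after SiREV1#2, at 0.21, -0.77 and -0.64, and KRT18 at 0.23, -0.34 and -0.22. TJP1, a scaffold of tight junctions, ranged from 30.4 to 85.7 FPKM with ratios between -0.16 and 0.35, and KRT19, another keratin, was at most 1.34 FPKM.

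The mesenchymal markers did not move together: FN1 rose after SiREV1#1 with the block, and CDH2 and VIM passed after neither siRNA in edgeR. FN1, which encodes the matrix glycoprotein fibronectin (GRCh38, chr2:215360440-215436172, minus strand), was listed at 175, 52.2 and 60.1 FPKM in Scramble, 221, 80.4 and 90.8 after SiREV1#1 and 117, 50.7 and 44.7 after SiREV1#2. In every replicate number SiREV1#1 was highest and SiREV1#2 lowest, while the groups overlapped through replicate 1. The blocked log2 fold change after SiREV1#1 was 0.59 ± 0.14 (edgeR adjusted p = 0.033; without the block 0.56 ± 0.64, adjusted p = 0.94) and passed in 3 of 8 fits with a library left out. SiREV1#1 and SiREV1#2 differed by 0.85 ± 0.17 (adjusted p = 0.013), and this passed in 8 of 8 edgeR fits. CDH2, N-cadherin, was listed at 7.92, 12.9 and 14.5 FPKM in Scramble, 7.96, 17.2 and 18.2 after SiREV1#1 and 6.27, 11 and 10.9 after SiREV1#2. Its blocked difference between the siRNAs was 0.62 ± 0.14 (edgeR adjusted p = 0.021), passing in 2 of 8 fits with a library left out. DESeq2 with the block called CDH2 after SiREV1#1 (0.39, adjusted p = 0.0494), where edgeR gave 0.38 ± 0.12 (adjusted p = 0.074). Thus CDH1 and CDH2 were both higher after SiREV1#1 than after SiREV1#2. VIM was lower than the same-numbered Scramble library in all 6 knockdown libraries, with log2 ratios from -0.14 to -0.38, and its blocked log2 fold changes of -0.16 ± 0.14 and -0.33 ± 0.16 did not pass (edgeR adjusted p = 0.48 and 0.34).

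In edgeR with the block and all 8 libraries, none of the 5 EMT transcription factors passed in any comparison. Without SiREV1#1 replicate 1, ZEB1 and ZEB2 passed after SiREV1#1 and SNAI1, ZEB1 and ZEB2 between the siRNAs, and without SiREV1#2 replicate 1 ZEB2 passed between them. ZEB1, a repressor of CDH1, was listed at 3.81, 6.14 and 7.57 FPKM in Scramble, 3.74, 3.53 and 3.69 after SiREV1#1 and 3.04, 9.83 and 8.88 after SiREV1#2. The groups did not differ in replicate 1 by more than 0.32 on the log2 scale, whereas in replicates 2 and 3 SiREV1#1 was lowest and SiREV1#2 highest. ZEB2, its paralogue, had the same order in replicates 2 and 3, with 0.77 and 1.12 FPKM in Scramble, 0.44 and 0.47 after SiREV1#1 and 1.56 and 1.37 after SiREV1#2, and was at most 0.09 FPKM in replicate 1. SNAI1, which encodes Snail, was listed at 5.52, 2.23 and 2.14 FPKM in Scramble, 9.24, 1.36 and 1.62 after SiREV1#1 and 7.05, 3.32 and 3.9 after SiREV1#2. The SiREV1#1 library was above Scramble in replicate 1 and below it in replicates 2 and 3. TWIST1 was between 1.01 and 2.08 FPKM in the 9 libraries. SNAI2 did not exceed 0.47 FPKM, and its blocked log2 fold change after SiREV1#1 was -1.92 ± 0.64 (edgeR adjusted p = 0.09).

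In the TGF-beta pathway the receptor gene TGFBR2 fell after SiREV1#1, and it differed between the siRNAs by more than any other gene on the list that passed. TGFBR2 binds the ligand (GRCh38, chr3:30606502-30694142, plus strand) and was listed at 54.0, 58.6 and 63.5 FPKM in Scramble, 31.7, 19.8 and 21.0 after SiREV1#1 and 74.8, 125 and 119 after SiREV1#2. The 3 groups did not overlap. In the blocked fit the log2 change after SiREV1#1 was -1.20 ± 0.27 (edgeR adjusted p = 0.028), against -1.19 ± 0.29 and an adjusted p of 0.21 without it, and it passed in 4 of 8 fits with a library left out. After SiREV1#2 it was 0.76 ± 0.32 (edgeR adjusted p = 0.26). The difference between the siRNAs was -1.96 ± 0.31 (edgeR adjusted p = 0.0069; 0.0507 without the block) and passed in 7 of 8 fits, all but the one without SiREV1#2 replicate 2. Only the 8 libraries with counts enter these fits, and limma on the FPKM of all 9 gave -2.09 with the block (adjusted p = 0.0006).

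The other genes of the pathway did not pass in edgeR with the block on all 8 libraries, except that TGFBR1 passed between the siRNAs with upper-quartile scaling (adjusted p = 0.041) or without the filter on low counts (adjusted p = 0.047). The receptor gene TGFBR1 ran from 12.1 to 33.0 FPKM in Scramble, 12.2 to 25.3 after SiREV1#1 and 16.02 to 47.6 after SiREV1#2, with a blocked difference between the siRNAs of -0.65 ± 0.19 (edgeR adjusted p = 0.0525). SMAD4, the shared partner of the receptor-activated SMADs, was lower than in the same-numbered Scramble library in all 3 SiREV1#1 libraries, at log2 ratios of -0.43, -0.37 and -0.50 (blocked -0.37 ± 0.14, edgeR adjusted p = 0.13), and SMAD3 had ratios from -0.21 to -0.48 in all 6 knockdown libraries. The ligand gene TGFB2 was below Scramble in the 3 SiREV1#2 libraries, with ratios of -1.30, -0.45 and -0.70. SiREV1#1 exceeded SiREV1#2 in each same-numbered pair, by 2.2, 0.46 and 0.5 on the log2 scale. With upper-quartile scaling and the block the difference was 1.27 (edgeR adjusted p = 0.053). It passed in DESeq2 and in limma with the block, as did that of TGFBR1. The other ligand gene, TGFB1, was between 33.4 and 72.0 FPKM. SMAD2 and the inhibitor SMAD7 followed the replicate number more than the siRNA.

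Of 24 further genes of TGF-beta signalling and its targets, all tested, 2 rose and 1 fell after SiREV1#1 with the block, 1 fell after SiREV1#2, and 2 were higher and 4 lower after SiREV1#1 than after SiREV1#2. Over all genes 12.3%, 1.91% and 17.6% passed in these comparisons, the shares against which the counts of each pathway list are to be read. Without the block 0 passed, as in each pathway list described here (0 to 5 genes per list and comparison at an unadjusted p under 0.05 in edgeR). TGFBR3, a co-receptor also called betaglycan, was listed at 1.94, 1.03 and 1.17 FPKM in Scramble, 4.99, 2.07 and 2.20 after SiREV1#1 and 3.94, 1.32 and 1.38 after SiREV1#2. Each SiREV1#1 library was above all 3 Scramble libraries, and the blocked log2 fold change was 1.11 ± 0.18 (edgeR adjusted p = 0.0094, passing in 5 of 8 fits with a library left out). After SiREV1#2 ID3, an inhibitor of basic helix-loop-helix factors, fell by 0.88 on the log2 scale (SE 0.17, edgeR adjusted p = 0.0469, 2 of 8 fits).

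Among the collagens, COL4A1 differed between the siRNAs in edgeR with the block. COL4A2, its neighbour on the opposite strand, passed this comparison in limma with the block but not in edgeR on all 8 libraries. Their chains assemble into the type IV collagen of basement membranes, and the genes lie head to head on chromosome 13 (GRCh38, chr13:110148963-110307233, minus strand, and chr13:110305812-110513209, plus strand). COL4A1 was listed at 6.72, 14.7 and 15.5 FPKM in Scramble, 7.40, 12.4 and 13.02 after SiREV1#1 and 11.3, 24.6 and 23.9 after SiREV1#2. COL4A2 was listed at 17.2, 33.4 and 32.6, at 15.3, 25.3 and 26.7, and at 21.2, 35.5 and 34.2 FPKM in the same order. SiREV1#2 was highest in each same-numbered set for both genes. The blocked difference of SiREV1#1 from SiREV1#2 was -0.77 ± 0.18 for COL4A1 (edgeR adjusted p = 0.024, passing in 2 of 8 fits with a library left out) and -0.42 ± 0.15 for COL4A2 (adjusted p = 0.097). In limma on log2(FPKM + 1) with the block COL4A2 also passed, with an adjusted p of 0.012. Against Scramble COL4A1 gave 0.73 ± 0.18 after SiREV1#2 (edgeR adjusted p = 0.086) and passed in limma on log2(FPKM + 1) with the block. The 300-base promoter windows of the pair in RefSeq (250 bases before to 50 after the start) overlap by 226 bases, and their starts lie 127 bases apart. The COL4A2 window is shown because it holds the region from which the pair is transcribed in opposite directions (GRCh38.p14, chr13:110307034-110307333, plus strand). Neither window holds an AP-1 or E-box match as defined for the laminin and integrin genes.
COL4A2 promoter: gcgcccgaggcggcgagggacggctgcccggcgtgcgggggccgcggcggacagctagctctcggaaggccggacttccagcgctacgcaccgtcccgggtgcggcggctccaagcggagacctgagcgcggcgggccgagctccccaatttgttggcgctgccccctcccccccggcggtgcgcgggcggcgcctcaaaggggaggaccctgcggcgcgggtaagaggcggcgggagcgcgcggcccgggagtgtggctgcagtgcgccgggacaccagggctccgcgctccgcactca

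None of the other collagen genes passed in edgeR on all 8 libraries with the filter on low counts, while COL1A1 differed between the siRNAs in DESeq2 with the block (adjusted p = 0.021). COL12A1, a collagen that decorates fibrils, was above the same-numbered Scramble library in all 3 SiREV1#1 libraries, with log2 ratios of 0.77, 0.53 and 0.42 (blocked 0.63 ± 0.24, edgeR adjusted p = 0.13). COL6A2, a chain of the microfibril-forming type VI collagen, was below it in all 6 knockdown libraries and most evenly after SiREV1#2, at -0.56, -0.58 and -0.58 (blocked -0.65 ± 0.24, adjusted p = 0.20). COL6A1 was between 1.56 and 3.54 FPKM, COL5A1, a fibrillar collagen gene, between 0.70 and 1.88, and COL1A1 reached 1.57 FPKM in SiREV1#1 replicate 1 alone. Of 16 listed genes of collagen processing and crosslinking, 14 were found and tested. With the block 3 rose and 3 fell after SiREV1#1 (12.3% of all genes passed), 0 passed after SiREV1#2 (3 at an unadjusted p under 0.05 in edgeR and 1 in DESeq2), and 1 was higher and 3 lower after SiREV1#1 than after SiREV1#2 (17.6% of all genes). P4HA1, a subunit of the enzyme that hydroxylates collagen prolines, was listed at 24.6, 18.5 and 18.6 FPKM in Scramble, 10.6, 9.73 and 9.88 after SiREV1#1 and 29.8, 23.2 and 23.3 after SiREV1#2. The SiREV1#1 libraries lay below all others, and the blocked log2 fold change was -0.94 ± 0.12 (edgeR adjusted p = 0.0036, 8 of 8 fits with a library left out). SERPINH1, the collagen chaperone HSP47, went from 35.1, 30.6 and 28.5 FPKM in Scramble to 55.9, 48.6 and 48.1 after SiREV1#1, with 26.0, 17.1 and 20.1 after SiREV1#2. These 3 groups did not overlap, and the change after SiREV1#1 was 0.77 ± 0.13 (edgeR with the block, adjusted p = 0.011, 4 of 8 fits). PLOD1, of the same list, went from 32.8, 22.6 and 21.6 FPKM in Scramble to 23.1, 2.67 and 3.04 after SiREV1#2. That change did not pass, and the median log2 change of the list after SiREV1#2 was 0.02 (edgeR with the block).

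Among the laminins LAMA3 rose after SiREV1#1. It encodes the alpha chain of laminin-332, which anchors epithelia to the basement membrane (GRCh38, chr18:23689443-23956222, plus strand), and was listed at 3.66, 2.40 and 2.59 FPKM in Scramble, 5.42, 4.88 and 5.19 after SiREV1#1 and 4.59, 3.50 and 3.43 after SiREV1#2. All SiREV1#1 libraries were above all others, and SiREV1#2 was above Scramble in each same-numbered pair. The blocked log2 fold change after SiREV1#1 was 0.82 ± 0.13 (edgeR adjusted p = 0.0084; without the block 0.80 ± 0.24, adjusted p = 0.29), and it passed in 5 of 8 fits with a library left out. After SiREV1#2 it was 0.38 ± 0.15 (adjusted p = 0.24), and the difference between the siRNAs was 0.44 ± 0.15 (edgeR adjusted p = 0.088). LAMC1, the gamma chain of most laminins, was above the same-numbered Scramble library in all 6 knockdown libraries, by log2 ratios of 0.30 to 0.65. Its blocked changes were 0.44 ± 0.12 and 0.57 ± 0.14 (edgeR adjusted p = 0.057 and 0.093). LAMC1 passed for both siRNAs in limma on log2(FPKM + 1) with the block. LAMB3, the beta chain of laminin-332, LAMB1 and LAMA5 had ratios between -0.53 and 0.54 and passed in no comparison in edgeR on all 8 libraries, while DESeq2 without the block called LAMA5 after SiREV1#2.

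Of the integrin genes, ITGA3 fell and ITGA5 rose after SiREV1#2, and these together with ITGAV differed between the siRNAs. ITGA3, the alpha chain of a laminin receptor (GRCh38, chr17:50055968-50090481, plus strand), was listed at 28.5, 36.6 and 31.8 FPKM in Scramble, 26.3, 27.4 and 27.6 after SiREV1#1 and 15.6, 14.4 and 15.8 after SiREV1#2. ITGA5, the alpha chain of the main fibronectin receptor (chr12:54395261-54419460, minus strand), was listed at 17.2, 23.1 and 20.8 FPKM in Scramble, 18.4, 23.2 and 23.03 after SiREV1#1 and 32.6, 40.7 and 43.4 after SiREV1#2. For both genes the SiREV1#2 libraries did not overlap those of the other groups, and replicate 1 of ITGA5 was the lowest library of each group. The blocked log2 fold change after SiREV1#2 was -1.08 ± 0.17 for ITGA3 (edgeR adjusted p = 0.025; without the block -1.07 ± 0.19, adjusted p = 0.23). For ITGA5 it was 0.91 ± 0.13 (edgeR adjusted p = 0.02; without the block 0.87 ± 0.21, adjusted p = 0.44). Each passed in 2 of 8 fits with a library left out, those without SiREV1#1 replicate 1 or 2, with adjusted p up to 0.28 and 0.25. SiREV1#1 gave -0.18 ± 0.14 and 0.16 ± 0.11 (adjusted p = 0.44 and 0.40), and SiREV1#1 and SiREV1#2 differed by 0.90 ± 0.17 for ITGA3 and -0.75 ± 0.13 for ITGA5 (edgeR adjusted p = 0.011 and 0.0098), passing in 7 and 6 of 8 fits.

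ITGAV, the alpha chain of vitronectin receptors that also activate latent TGF-beta, was listed at 33.8, 33.8 and 44.9 FPKM in Scramble, 12.4, 29.3 and 33.2 after SiREV1#1 and 34.8, 59.2 and 56.7 after SiREV1#2. No SiREV1#1 library overlapped the other groups, its highest value being just below the lowest Scramble value. The blocked difference between the siRNAs was -1.10 ± 0.24 (edgeR adjusted p = 0.019, 6 of 8 fits with a library left out). ITGB1, the beta partner of ITGA3, ITGA5 and ITGAV, stayed between 402 and 585 FPKM with log2 ratios of -0.18 to 0.32. ITGA2 and ITGA6, chains of collagen and laminin receptors, ITGB4, the partner of ITGA6 in hemidesmosomes, and ITGB5, a partner of ITGAV, passed in no comparison in edgeR on all 8 libraries. Of 16 focal adhesion genes, which link integrins to actin, 1 rose after SiREV1#1 with the block, where 12.3% of all genes passed (FERMT2, 0.64 ± 0.15, edgeR adjusted p = 0.036, 3 of 8 fits). After SiREV1#2 2 fell: the actin crosslinker FLNA, by 1.04 on the log2 scale, and the integrin-linked scaffold ILK, by 0.86 (edgeR adjusted p = 0.031 and 0.042, each in 2 of 8 fits), where 1.91% of all genes passed. Between the siRNAs 4 were higher and 1 lower after SiREV1#1 (17.6% of all genes). Of 23 further junction genes 18 were tested, and 3 rose and 1 fell after SiREV1#1 (12.3% of all genes), 0 passed after SiREV1#2 (6 at an unadjusted p under 0.05 in edgeR and 3 in DESeq2) and 4 were higher after SiREV1#1 than after SiREV1#2 (17.6% of all genes). The desmosomal cadherin gene DSC2, at 2.72, 2.90 and 3.63 FPKM in Scramble, was at 5.27, 8.63 and 8.21 after SiREV1#1 and at 4.73, 4.91 and 4.51 after SiREV1#2, so that all 6 knockdown libraries lay above Scramble. After SiREV1#1 it rose (1.36 ± 0.15, edgeR with the block, adjusted p = 0.0022, 8 of 8 fits). The tight junction scaffold TJP3 rose by 1.29 ± 0.26 after SiREV1#1 (adjusted p = 0.02, edgeR with the block, 4 of 8 fits). It went from 12.4, 5.42 and 6.48 FPKM in Scramble to 7.43, 2.13 and 2.06 after SiREV1#2, where it did not pass. The siRNAs differed by 2.2 ± 0.33 (adjusted p = 0.0054, edgeR with the block).

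Promoter windows of 300 bases from RefSeq (GRCh38.p14) were found for 39 of the 53 genes. The 14 without a window include CDH1, ITGA3 and MMP2. They were searched on both strands for 2 motifs, the letters TGANTCA bound by AP-1 factors and the E-box CAGGTG bound by SNAI and ZEB factors. Matches of the motifs may share bases. The AP-1 letters occurred in 7 of 74 windows of these genes and in 7.71% of 35116 windows of all genes. The genes were CDH2, ITGA5, LAMA3, LAMB3, PLAUR, SMAD3 and TGFBR2. The E-box letters occurred in 16 of the 74 windows, from 12 genes, and in 20.6% of all windows. The windows of the 3 genes that passed against Scramble and hold an AP-1 match are shown, with the match in capitals: LAMA3 (chr18:23872770-23873069, plus strand), TGFBR2 (chr3:30606351-30606650, plus strand) and ITGA5 (chr12:54419217-54419516, minus strand). The windows shown for TGFBR2 and ITGA5 each hold 1 match, which begins in both at base 245 of the window. A further TGFBR2 window (chr3:30606106-30606405) holds none. The LAMA3 window holds 2 matches and lies inside the gene as annotated above, not at its first base. A match describes these letters and is no measured binding site.
LAMA3 promoter: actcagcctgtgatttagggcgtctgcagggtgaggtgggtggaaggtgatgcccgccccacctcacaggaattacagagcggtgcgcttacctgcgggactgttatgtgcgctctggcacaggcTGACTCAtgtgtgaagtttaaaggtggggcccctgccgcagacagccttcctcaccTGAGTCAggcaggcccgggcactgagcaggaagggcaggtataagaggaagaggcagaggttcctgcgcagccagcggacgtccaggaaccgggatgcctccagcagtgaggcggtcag
TGFBR2 promoter: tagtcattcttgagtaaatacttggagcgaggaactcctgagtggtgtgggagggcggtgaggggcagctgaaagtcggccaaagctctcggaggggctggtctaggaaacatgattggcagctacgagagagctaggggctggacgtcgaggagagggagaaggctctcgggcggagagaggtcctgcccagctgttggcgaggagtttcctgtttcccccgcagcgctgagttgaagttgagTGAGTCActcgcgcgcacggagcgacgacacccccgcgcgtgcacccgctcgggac
ITGA5 promoter: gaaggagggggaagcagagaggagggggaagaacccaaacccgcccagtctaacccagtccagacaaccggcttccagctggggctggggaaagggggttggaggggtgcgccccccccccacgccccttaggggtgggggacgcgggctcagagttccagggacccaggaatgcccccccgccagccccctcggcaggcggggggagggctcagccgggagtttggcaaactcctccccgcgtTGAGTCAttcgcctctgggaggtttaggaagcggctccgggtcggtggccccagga

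Among the proteases and their inhibitors only MMP2 passed in edgeR with the block on all 8 libraries. MMP2, gelatinase A, was listed at 0.29, 0.17 and 0.11 FPKM in Scramble, 0.06, 0.04 and 0.05 after SiREV1#1 and 0.09, 0.14 and 0.08 after SiREV1#2. The SiREV1#1 libraries lay below the others at a level near the limit of detection. Its blocked log2 fold change was -1.75 ± 0.47 (edgeR adjusted p = 0.0498), and it passed in 0 of the 6 fits with a library left out in which it was tested. PLAU, the urokinase plasminogen activator, was at 11.7, 19.9 and 20.2 FPKM in Scramble, 10.2, 11.3 and 11.4 after SiREV1#1 and 12.9, 17.2 and 21.2 after SiREV1#2. It passed after SiREV1#1 in limma on log2(FPKM + 1) with the block and not in edgeR on all 8 libraries. TIMP2, an inhibitor of MMPs, did likewise, at 17.8, 17.8 and 17.7 FPKM in Scramble and 16.1, 12.0 and 12.5 after SiREV1#1. PLAUR, the urokinase receptor, and TIMP1 were above Scramble in SiREV1#1 replicate 1 and below it in replicates 2 and 3. THBS1, a matrix glycoprotein that activates TGF-beta, had a ratio of -1.37 in SiREV1#2 replicate 1 and of -0.01 and -0.16 in replicates 2 and 3. Limma on log2(FPKM + 1) with the block uses all 9 libraries and 45 of the genes. By this fit 7 passed after SiREV1#1, 5 after SiREV1#2 and 16 between the siRNAs, where the shares of all genes were 19.7%, 11.3% and 36.5%. They included SMAD3 after SiREV1#1, TGFBR1 after SiREV1#2, and CLDN1, LAMA3, PLAU and SMAD4 between the siRNAs. In these comparisons edgeR with the block did not call them.

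Within same-numbered libraries, 26 of the 45 genes above 1 FPKM went the same way in all 3 pairs after SiREV1#1, 9 up and 17 down, against 55.1% of all such genes. After SiREV1#2 31 did, 18 up and 13 down, against 55.6%. The split into up and down was not computed over all genes. The FPKM ratios were not centred. By limma on log2(FPKM + 1) the median log2 change of all genes was -0.07 after SiREV1#1 and 0.0 after SiREV1#2. In 17 genes replicate 1 went opposite to replicates 2 and 3 after SiREV1#1 (29.8% of all genes) and in 9 after SiREV1#2 (25.1%). The 17 included CLDN1, SNAI1, TGFB1, TGFBR1, PLAUR and TIMP1, and the 9 included KRT8, KRT18, ZEB1 and TWIST1.

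**Figure D2:**
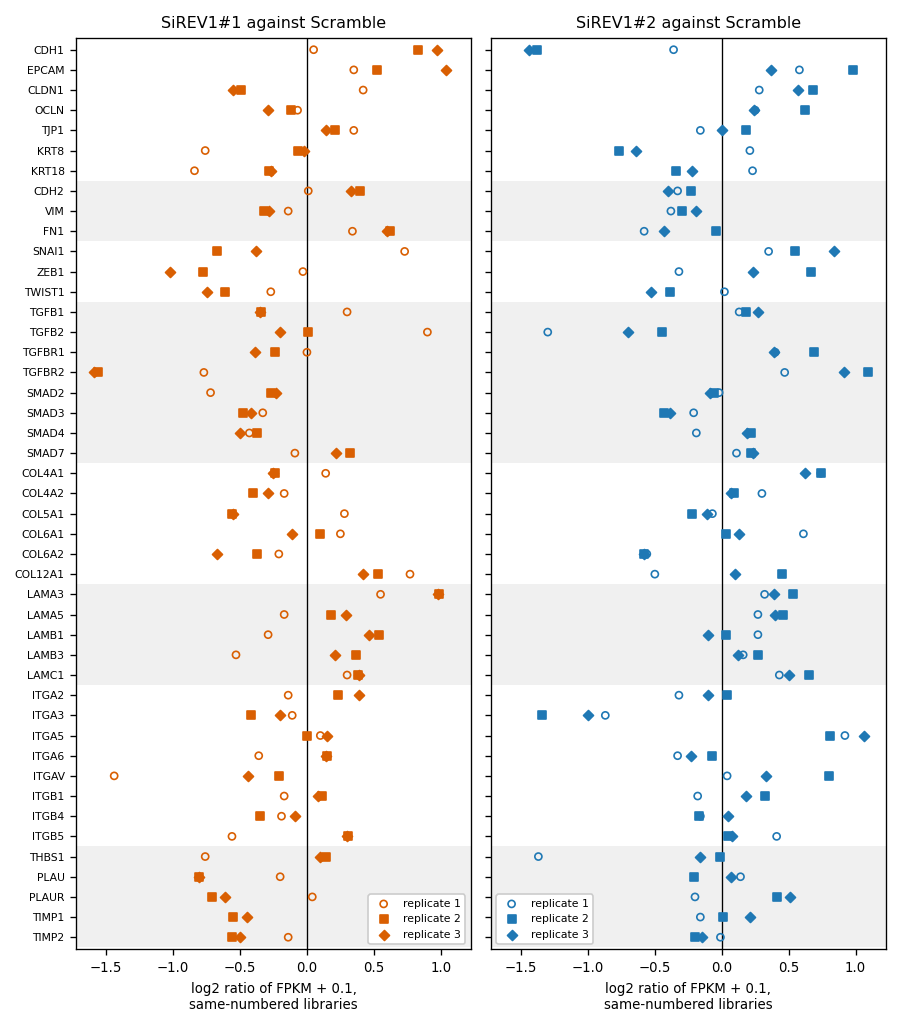
Log2 ratio of FPKM + 0.1 of each knockdown library to the Scramble library of the same number, for the 45 genes above 1 FPKM on average (rows, ordered and shaded by role), SiREV1#1 on the left and SiREV1#2 on the right; open symbols are replicate 1. TGFBR2 lies left of 0 at all 3 points after SiREV1#1 and right of 0 at all 3 after SiREV1#2, and the open symbol often lies apart from the filled ones.

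Of the 9 genes that differed between the siRNAs with the replicate block, SiREV1#1 was higher for CDH1, CDH2, FN1 and ITGA3 and SiREV1#2 for OCLN, TGFBR2, COL4A1, ITGA5 and ITGAV. For CDH1, CDH2, FN1, OCLN, TGFBR2 and ITGAV the siRNAs lay on opposite sides of Scramble in all 3 replicate numbers. In replicate 1 some of these ratios were close to 0, with 0.01 for CDH2 and 0.05 for CDH1 after SiREV1#1 and 0.04 for ITGAV after SiREV1#2. These comparisons with Scramble share its libraries. REV1 itself was at 2.6 to 3.36 FPKM after SiREV1#1 and at 3.18 to 3.62 after SiREV1#2, ranges that overlap, and the part of the residual REV1 level in these differences was not tested.

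**Figure D3:**
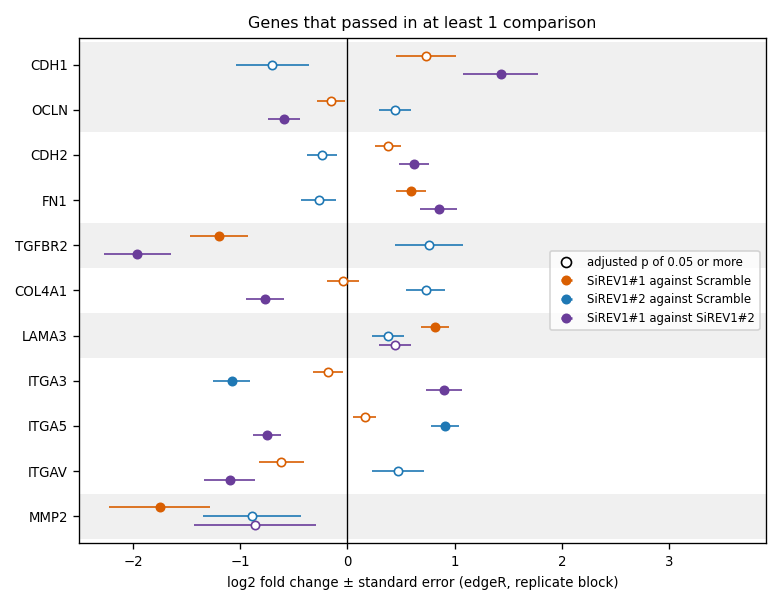
Log2 fold change with its standard error (bars) from edgeR with the replicate block, for the 11 genes that passed in at least 1 comparison; orange compares SiREV1#1 with Scramble, blue SiREV1#2 with Scramble and purple SiREV1#1 with SiREV1#2, and filled points have an adjusted p under 0.05. TGFBR2 shows the widest difference between the siRNAs, -1.96, with its Scramble comparisons on opposite sides of 0.

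Replicate 1 differed from replicates 2 and 3 in the same direction in all groups for a part of the genes, in size up to 16-fold. Of the 45 genes 1 was over 2-fold higher in replicate 1 in all 3 groups (FN1; 5.33% of all genes) and 5 were over 2-fold lower (CLDN1, TGFB2, TGFBR1, SMAD2 and SMAD7; 8.76% of all genes). The mean of replicates 2 and 3 of CLDN1 was 12.6-fold above replicate 1 in Scramble, 6.56-fold after SiREV1#1 and 16-fold after SiREV1#2. For TGFB2, a ligand, the factors were 7.56, 3.80 and 12.5, and for SMAD7, the inhibitory SMAD, 3.49, 4.47 and 3.78. SMAD2 was 2.48-, 3.44- and 2.38-fold lower in replicate 1 and THBS1 1.76-, 3.24- and 4.28-fold lower. FN1 was 3.12-, 2.59- and 2.46-fold higher in replicate 1, SNAI1 2.46-, 5.89- and 1.93-fold higher and CDH1 2.45-, 1.35- and 5.05-fold higher. Replicate 1 thus had more RNA of CDH1, EPCAM, KRT8 and KRT19 in all groups, and less of CLDN1, OCLN and TJP1. KRT18 went in no common direction. Of the EMT transcription factors SNAI1 was higher in replicate 1, and ZEB2, SNAI2 and TWIST1 were lower. ZEB1 had log2 ratios of -0.82, 0.05 and -1.59 in Scramble, SiREV1#1 and SiREV1#2. KRT19 and ZEB2 had ratios of 1.82 to 1.99 and -1.55 to -3.48 on the log2 scale at levels near or under 1 FPKM. Both COL4A1 and COL4A2 were lower in replicate 1, by 1.71- to 2.23-fold and 1.64- to 1.91-fold. Between replicates 2 and 3, 0 of the 45 genes differed by over 2-fold in any group, and the largest difference was 0.62 on the log2 scale (EPCAM after SiREV1#1). What sets replicate 1 apart is not given in the labels and was not tested.

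**Figure D4:**
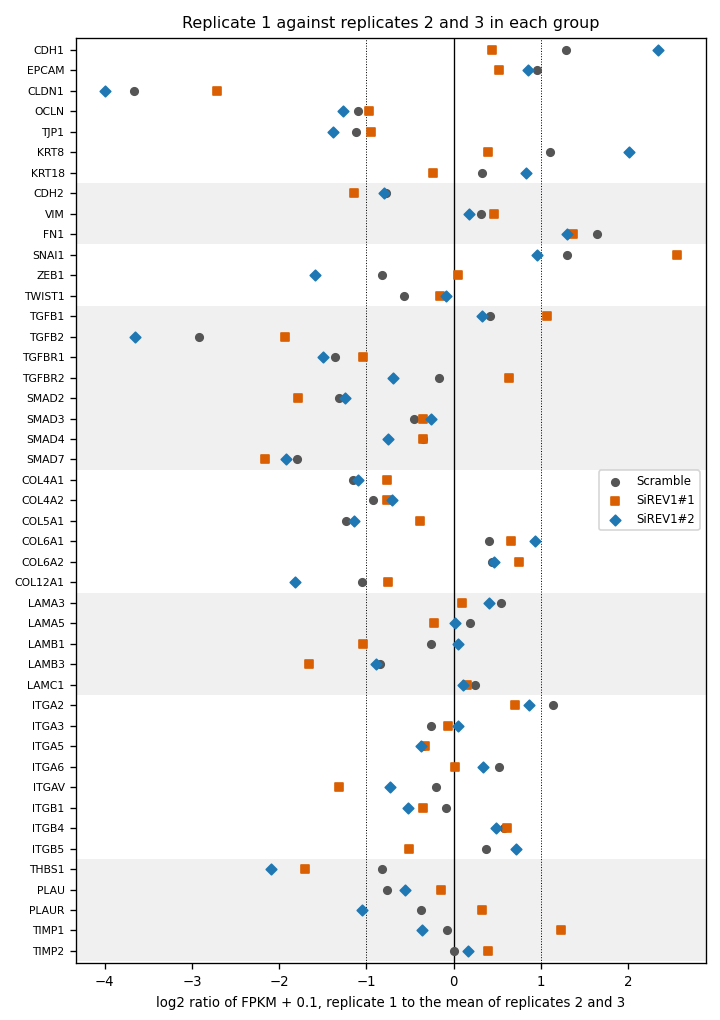
Log2 ratio of FPKM + 0.1 of replicate 1 to the mean of replicates 2 and 3 in each group, for the 45 genes above 1 FPKM on average (rows, ordered and shaded by role); dotted lines mark 2-fold. CLDN1 and TGFB2 lie far to the left and FN1 to the right of the dotted lines in all 3 groups.

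With replicate 1 left out of every group, the spread between libraries was smaller (biological coefficient of variation 0.0494) and far more genes passed. In edgeR on replicates 2 and 3, with 5 libraries and 52 of the genes tested, 40 passed after SiREV1#1, 26 after SiREV1#2 and 32 between the siRNAs, where 46.5%, 38.4% and 54.4% of all 14181 genes passed. The difference between these shares was not tested. CDH1 then gave 0.92 ± 0.07 after SiREV1#1 and -1.39 ± 0.09 after SiREV1#2, and ZEB1 -0.89 ± 0.10 and 0.53 ± 0.11. Replicate 1 was singled out from these same data. Its log2 ratios to Scramble after SiREV1#1 and SiREV1#2 were 0.05 and -0.36 for CDH1 and -0.03 and -0.32 for ZEB1. TGFBR2 gave -1.56 ± 0.07 and 1.04 ± 0.07 on replicates 2 and 3, where the ratios of replicate 1 were -0.77 and 0.47. SNAI1 gave -0.54 ± 0.19 after SiREV1#1, where with all replicate numbers and the block it was 0.09 ± 0.35. SiREV1#2 has 1 library with counts of its own in this fit, and its spread is taken to be that of the other groups.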

How the data were processed

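RNA-seq libraries of A549 cells, 3 per group, were grouped by their sample labels. The authors deposited, for each library, FPKM values rounded to 2 decimals and estimated counts per gene, of which 42.6% were not whole. The submitters' processing notes name StringTie 1.3.3b and hg38, without a role; aligner, annotation and strand setting are not given in the sources used here. The count column of SiREV1#2 replicate 3, the 1 column of per-sample values not used, repeats replicate 2. Expected counts were rounded and fitted for all genes passing filterByExpr with edgeR 4.0.16 under R 4.3.3 (TMM, quasi-likelihood F test, Benjamini-Hochberg, adjusted p under 0.05), with and without the replicate number as a block. The numbers are on the labels, and deviations of the 9 same-numbered pairs correlated at 0.734 to 0.929, all above 0.1; replicates 2 and 3 of different groups correlated at 0.751 to 0.914 and replicate 1 with either at -0.924 to -0.754, so the pairing rests on replicate 1. Standard errors (SE) were obtained from the fold change and the F statistic (|log2 change| over the root of F). Ratios are of FPKM + 0.1. DESeq2 1.42.0, limma 3.58.1 (limma-trend on log2(FPKM + 1) or log2(FPKM + 0.1), genes above a mean of 1 FPKM), upper-quartile scaling, no filter, replicates 2 and 3 only, and leaving out each library were alternatives. The last limma fit, on replicates 2 and 3, was added after seeing the data. Scripts were tested on simulated data. Depth limits genes under 1 FPKM most.

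The 53 genes, the pathway and marker lists and the tests were chosen with earlier results of these data known. Genes were named when they passed with or without the block, as core EMT genes, by the largest replicate 1 ratios (8 genes), by the largest ratios of equal sign in 3 pairs (up to 5 per siRNA), by level in Scramble, or as a shared-promoter pair. Of each pathway list at most 4 genes were named, and 1 gene of the TGF-beta list is not reported here. PLAU, TIMP2, LAMC1 and other genes outside this rule were named after their values were seen. Gene coordinates and shared 50-base words are from GENCODE v29 (GRCh38), promoter sequences from RefSeq (GRCh38.p14).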

Additional observations from a re-analysis of the deposited data

Results flagged for a closer look

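The 9 results here were noted because the effects of the siRNAs, each against the same Scramble libraries, differed in the direct test with the replicate block (edgeR, adjusted p under 0.05). The log2 difference of SiREV1#1 from SiREV1#2 was 1.43 for CDH1, 0.62 for CDH2, 0.85 for FN1 and 0.90 for ITGA3. It was -0.59 for OCLN, -1.96 for TGFBR2, -0.77 for COL4A1, -0.75 for ITGA5 and -1.10 for ITGAV. For CDH1, CDH2, FN1, OCLN, TGFBR2 and ITGAV the siRNAs lay on opposite sides of Scramble in all 3 replicate numbers, in replicate 1 by little for some, and for COL4A1, ITGA3 and ITGA5 they did not. In edgeR without the block 0 of these 9 genes passed this comparison. The cause of the differences was not tested.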

How the results depend on the processing

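Without the replicate block, the counts of 0, 0 and 0 genes (after SiREV1#1, after SiREV1#2 and between the siRNAs) became 4, 2 and 9 with the replicate block, 1, 3 and 3 in DESeq2, 0, 0 and 1 with upper-quartile scaling, and 0, 1 and 3 in limma with either pseudocount. On replicates 2 and 3 only they were 40, 26 and 32 in edgeR and 36, 31 and 32 in limma, the latter added after seeing the data. No filter left them at 0. Leaving out each library gave 0 to 0, 0 to 0 and 0 to 1. Over all genes the counts moved with the setting too. DESeq2 called 582, 215 and 887 of 14205 genes without the block and 2258, 857 and 2943 with it. Limma on log2(FPKM + 1) with the block called 2249, 1291 and 4167 of 11429. With the block, the list's counts of 4, 2 and 9 became 7, 4 and 12 in DESeq2 and 7, 5 and 16 in limma with either pseudocount. They became 3, 2 and 10 with upper-quartile scaling and 3, 2 and 11 with no filter. Leaving out each library with the block gave 0 to 18, 0 to 9 and 2 to 22. Direction under the alternatives was followed only for genes and comparisons named as passing with the block. SNAI1, outside this set, changed sign after SiREV1#1 on replicates 2 and 3, as given above. Of the values followed, 3 turned direction, all without the block. FN1 did so without SiREV1#1 replicate 1, at -0.14 against Scramble and -0.01 against SiREV1#2. OCLN did so without SiREV1#2 replicate 2, at 0.33 between the siRNAs. The cause was not tested. Over all libraries left out in turn, FN1 reached 1.32 and 1.45 in these comparisons, and OCLN ran down to -0.97. MMP1, TIMP3, SNAI2 and MMP2 are too low for a firm comparison at this depth, and the count tests rest on 2 libraries of SiREV1#2. An adjusted p of 0.05 or more does not show that a gene was unchanged.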
